A study of Drosophila melanogaster and Drosophila melanogaster
Drosophila virilis and Drosophila virilis with 9 samples.

Results

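The proteasome is the protease that degrades proteins tagged with ubiquitin. Its barrel-shaped core particle has rings of alpha subunits, which gate the entry pore, around rings of beta subunits, of which beta1, beta2 and beta5 cut peptide bonds. The regulatory particle that caps the core has a base of Rpt ATPases and large Rpn scaffolds, which unfolds substrates, and a lid in which Rpn11 removes ubiquitin chains. In Drosophila several subunits also have a paralogue gene, and some of these paralogues are known from the testis.

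The genes described here were all those of Drosophila melanogaster in the Drop-seq tables whose symbol starts with Prosalpha, Prosbeta, Rpn or Rpt followed by a digit. The rule found 46 of 15600 genes. Of these, 31 encode subunits of the complex, with 6 in the alpha ring, 7 in the beta ring, 10 in the base and 8 in the lid. The other 15 are paralogues, of which 4 belong to the alpha ring, 6 to the beta ring, 4 to the base and 1 to the lid. All 46 matched the BDGP6.54 annotation, in which the 31 subunit genes are spread over arms 2L with 4, 2R with 9, 3L with 5, 3R with 9 and X with 4. The first alpha subunit, Prosalpha1, had no row in these library tables and is not analysed here. No exon base of the 31 was covered by an exon of another gene on the same strand. Rpn9, with 15.7% of its exon bases, and Rpt6, with 13.0%, overlapped genes of the opposite strand, which bears on the unstranded bulk reads.

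Drop-seq joins each cell to a bead in a droplet and gives each captured poly(A) RNA a unique molecular identifier (UMI), read near its 3′ end, so a count is not divided by transcript length. Whole stage 6 embryos of the strain y1 w1118, with the transgenes P{st.2::Gal4} and P{vnd::dsRED}, were used in every D. melanogaster group, collected over 1 h, aged for 2 h 30 min, dissociated mechanically, passed through a 20 um strainer and fixed in 80% methanol. There were 5 libraries of D. melanogaster alone, numbered 3 to 7, and 2 in which cells of D. virilis embryos were mixed in, numbered 1 and 2. A bulk library was made from 200 ng RNA of whole, unfixed embryos of the same strain and stage, without replication. No label says that the Drop-seq libraries came from separate egg collections, so the spread between libraries may be partly technical. For groups of cells within libraries, p-values measure how the difference between groups varied over libraries. For mixed against single-species libraries they measure the spread between libraries.

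The library tables held 11329 barcodes and 102732563 UMIs, and 7999 barcodes had at least 1000 UMIs of which 90% or more were from D. melanogaster genes. Of these, 5071 had at least 3000 UMIs. A pooled table of 1297 high-quality cells, with 12504 to 134930 UMIs each, gives every cell a number from 1 to 11 as a suffix of its name. Any pair of libraries shared at most 5 cell barcodes. D. virilis cells of the mixed libraries have their own copies of these genes, and UMIs assigned there to the D. melanogaster genes, whether from free RNA or from reads shared between the species, gave subunit levels of 103 and 40.1 CPM (UMI counts-per-million of all UMIs), against 3541 and 3529 in the D. melanogaster cells of the same libraries, or 2.90% and 1.14%, with median depths of 3573 and 6239 UMIs against 4376 and 6330.

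All 31 subunit transcripts were detected in all 7 libraries. Together they took 0.382% of the UMIs, and their summed level was 3825 ± 363 CPM (SD, n = 7), from 3275 in library 3 through a median of 3931 to 4359 in library 5. The beta ring contributed 1553 ± 166 CPM, the alpha ring 972 ± 123, the lid 685 ± 47.3 and the base 615 ± 49.8 (SD, n = 7). The core particle genes were thus higher than those of the regulatory particle, in sum and by the median gene. The median gene stood at 224 CPM in the beta ring, 153 in the alpha ring, 63.7 in the lid and 48.7 in the base.

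The highest level was that of Prosbeta7, a beta ring subunit encoded on arm 3R from 5357012 to 5358364 (BDGP6.54, minus strand), at 279 to 356 CPM with a median of 318. Prosbeta4 ranged from 241 to 357 CPM with a median of 300.0. Prosbeta6 ranged from 230 to 312 CPM with a median of 284. These 3 beta subunits, none of which is catalytic, were the top 3 genes of the complex by mean level. Prosalpha6 of the alpha ring followed at 224 ± 29.9 CPM and Prosbeta3 at 224 ± 35.7 CPM (SD, n = 7). The catalytic subunits Prosbeta5, Prosbeta2 and Prosbeta1 stood lower, at 153 ± 22.4, 153 ± 15.7 and 121 ± 15.3 CPM (SD, n = 7). In the lid, Rpn12 at 208 ± 25.8 CPM and Rpn6 at 125 ± 10.5 CPM stood above the other members, and the ATPase Rpt4 at 144 ± 26.8 CPM stood above the rest of the base (SD, n = 7).

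The lowest level was that of Rpn1, the scaffold of the base that binds ubiquitin shuttles, at 29.7 to 38.4 CPM. The ATPase Rpt5 had 41.9 ± 3.52 CPM and the ubiquitin receptor Rpn13 45.6 ± 2.30 CPM (SD, n = 7). The lid subunits Rpn8, which pairs with Rpn11, and Rpn3 had 42.4 ± 2.88 and 43.4 ± 4.30 CPM (SD, n = 7). The highest and lowest subunit genes differed 9.24-fold in mean level. Ordered by mean, 29 of the 30 pairs of neighbours had overlapping library ranges, and Rpt2 over Rpn5, at a ratio of 1.21, was the pair whose ranges did not meet. Even the lowest subunit, Rpn1, ranked 2830th of all genes, the 81.7th percentile of detected genes.

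**Figure D1:**
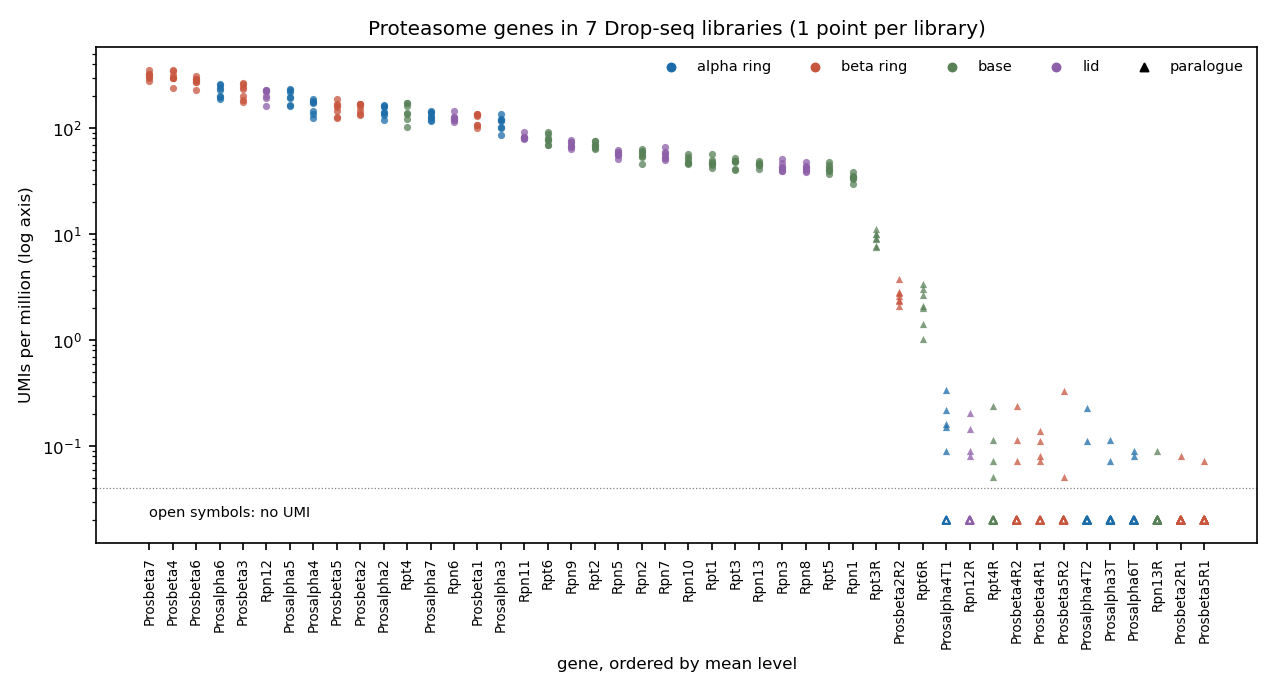
Level of each of the 46 genes in CPM (log axis), ordered by mean level, with 1 point for each of the 7 Drop-seq libraries, coloured by ring, base or lid, triangles for paralogues and open symbols where a library had no UMI. The 31 subunits run from Prosbeta7 down to Rpn1, and Rpt3R leads the paralogues below them.

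The paralogues were far lower. Their sum over 15 genes was 14.8 ± 2.05 CPM (SD, n = 7). Rpt3R, the paralogue of the ATPase Rpt3, had 745 UMIs in all, against 3761 for Rpt3, a ratio of 5.05. Prosbeta2R2 had 220 UMIs, 56.8 times fewer than Prosbeta2, and Rpt6R had 172, which was 36.8 times fewer than Rpt6. These 3 were found in all 7 libraries. The other 12 paralogues had 1 to 12 UMIs each among 7999 cells: Prosalpha4T1 had 12, Rpn12R 8, Rpt4R 6, Prosbeta4R2 5, Prosbeta4R1 and Prosbeta5R2 4 each, Prosalpha4T2 3, Prosalpha3T and Prosalpha6T 2 each, and Prosbeta2R1, Prosbeta5R1 and Rpn13R 1 each. In all, 14 of 15 lay over 10-fold below their partner subunit. In the bulk library 11 of the 15 had no read, and Rpt3R had 57, Prosbeta2R2 23, Rpt6R 6 and Prosalpha6T 1. Reads that match a subunit and its paralogue equally well could be counted for either or neither, and how the UMIs were assigned is not given in the sources used here.

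Library kind, mixed or single species, was examined first, since it could enter every other result. With edgeR's quasi-likelihood test and Benjamini-Hochberg adjustment, 0 of 34 members that passed the low-count filter differed, and 0% of the 8183 genes tested did. At an unadjusted p under 0.05 there were 1 member and 387 genes. DESeq2 called 8 genes, none of them a member. The median log2 difference of the members was -0.04, with a range from -0.30 to 0.17. By part, the median was -0.18 in the alpha ring (-0.30 to -0.04) and -0.15 in the beta ring (-0.24 to -0.006). It was 0.07 in the base (-0.30 to 0.17) and -0.02 in the lid (-0.09 to 0.11). With 2 mixed-species against 5 single-species libraries, small differences may be missed.

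In the pooled table, 34 of the 46 genes were present, including all 31 subunits, and suffixes 2 to 9 had enough cells for sums in at least 3 libraries. The meaning of the suffixes is not stated. If they came from the cells' expression, tests between them are not independent of the genes tested, members included. By listed marker genes, suffix 3 was ventral neurogenic ectoderm-like, with 7 of 8 markers over 2-fold higher than in the other cells. Suffix 4 was mesoderm-like with 7 of 7, suffix 5 head-like with 5 of 5 and suffix 6 dorsal ectoderm- or amnioserosa-like with 10 of 10. Suffixes 2, 7, 8 and 9 are left unnamed. Their leading genes included ImpE2 and hkb in 2, CG2930 and DNaseII in 7, byn and klg in 8, and gcm and ham in 9.

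The summed level of the 31 subunits was 3661 ± 564 CPM in suffix 2, 3710 ± 291 in suffix 3, 3897 ± 315 in suffix 4 and 3775 ± 456 in suffix 5 (SD, n = 7 libraries each). It was 3427 ± 396 in suffix 6 (SD, n = 5), 3826 ± 502 in suffix 7 (SD, n = 3), 3883 ± 382 in suffix 8 (SD, n = 4) and 3203 ± 338 in suffix 9 (SD, n = 5). The highest mean was 1.22 times the lowest, and the library ranges of suffixes 4 and 9 overlapped. Suffixes 6 and 9 had sums in libraries 2, 3, 4, 6 and 7. Suffix 7 had them in libraries 1, 3 and 7, and suffix 8 in 2, 3, 4 and 7. Over all cells the libraries ran from 3275 to 4359 CPM, so differences between libraries enter these ratios. Single genes varied from 1.21-fold for Prosalpha5 to 1.89-fold for Rpn8 between their highest and lowest suffix, with no allowance for library or counting error. Suffix 9, led by gcm and ham, had the lowest mean for 19 of the 31 genes. It also had 6 of 7 mesoderm markers over 2-fold higher than the other cells, with a summed marker level of 4475 CPM against 4259 in suffix 4.

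**Figure D2:**
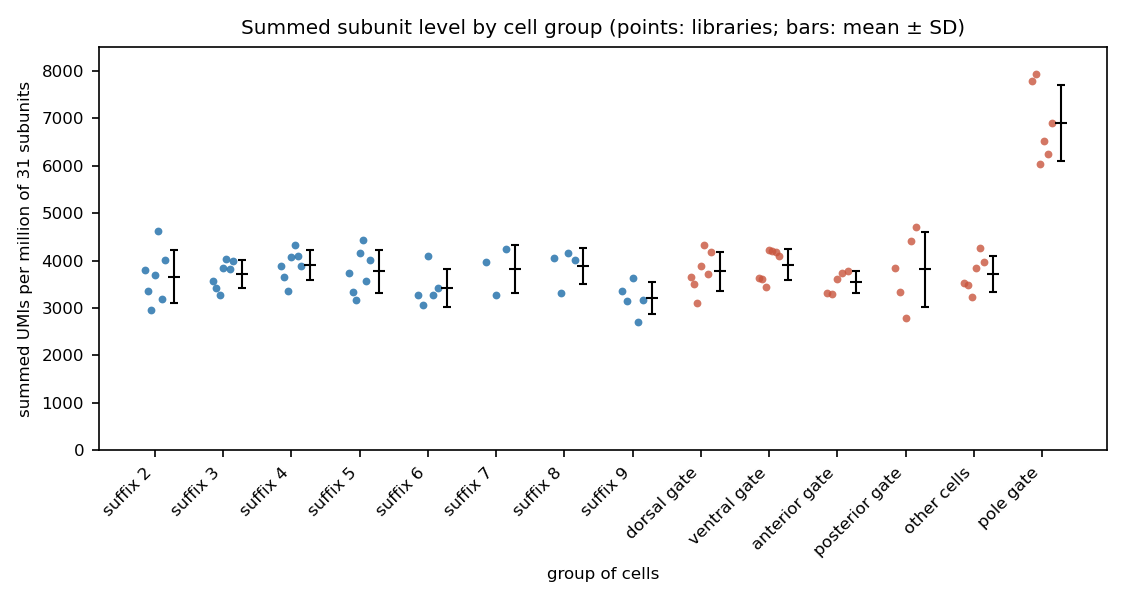
Summed level of the 31 subunits in CPM (linear axis) in each suffix and gate, with a point for each library that had at least 5 cells of the group and a bar for the mean ± SD. The suffixes and the other gates have means from 3203 to 3914, and the pole cell gate lies apart at 6037 to 7923.

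Any difference among the 8 suffixes was called by edgeR's quasi-likelihood test for 3 of 31 members, or 9.68%, where 29.6% of all 4141 genes tested were called. These were Prosbeta4 (FDR 0.00238), the lid subunit Rpn7 (FDR 0.0321) and Prosalpha2, whose protein is part of the pore gate of the alpha ring (FDR 0.0336). All 3 calls were lost when cells were thinned to equal depth and without the library block. They were also lost when only sums of at least 10 cells were used. That setting left out suffixes 2, 6, 7 and 9, so it compared fewer groups and is not a like test.

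Prosalpha2 was higher in the mesoderm-like suffix 4, where it ranged from 136 to 192 CPM with a median of 152. In suffix 3 it ranged from 108 to 156 CPM with a median of 142, so the ranges overlapped. Suffix 9, with its like level of mesoderm markers, had the lowest mean of this gene, at 112 CPM. The log2 change of suffix 4 against the mean of the others was 0.23 (SE 0.0760, edgeR FDR 0.0262), the 1 call higher among 31 members against 6.76% of all genes. It was not called without library 5, at 0.22 (FDR 0.0660), in thinned sums (FDR 0.134) or without the library block (FDR 0.0821). Nor was it called with sums of at least 10 cells, where suffix 4 was set against fewer suffixes (FDR 0.193).

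In the dorsal ectoderm- or amnioserosa-like suffix 6, 3 members fell and none rose, against 7.85% of all genes called lower. Prosbeta4 was at 216, 213, 226, 231 and 256 CPM in libraries 2, 3, 4, 6 and 7, where suffix 3 had 285, 241, 339, 287 and 305. It was lower in each of the 5 libraries, though the ranges met between 241 and 256. The log2 change against the others was -0.29 (SE 0.0832, edgeR FDR 0.00878). Prosbeta3 changed by -0.37 (SE 0.126, FDR 0.0326), with 59.7, 154, 174, 242 and 215 CPM in those libraries. The ATPase Rpt4 changed by -0.39 (SE 0.139, FDR 0.0434), with 59.7, 102, 129, 139 and 133 CPM. Both of these genes were lowest in library 2, which had 7 cells of the suffix. Prosbeta4 lost its call without library 4, at -0.22 (FDR 0.111), and without library 7, at -0.27 (FDR 0.0573). Prosbeta3 lost it without library 1, 2, 3 or 4, at -0.34, -0.26, -0.38 and -0.30, and Rpt4 without library 1, 2, 3, 4 or 7, at -0.36, -0.34, -0.29, -0.40 and -0.37. Over all settings tried, Prosbeta4 lost its call in 5 of 12 (FDR up to 0.658), Prosbeta3 in 7 of 12 and Rpt4 in 8 of 11. No member was called in thinned sums.

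No member was called by edgeR in suffixes 2, 3, 5, 7, 8 or 9, where 8.94%, 11.3%, 10.9%, 4.93%, 4.93% and 10.1% of all genes were called in either direction. At an unadjusted p under 0.05 these suffixes had 1, 1, 1, 2, 1 and 6 members. DESeq2 was not run for 1 suffix against the others, and its result for any difference among the suffixes is not given here. Of the 31 members, the median log2 change ran from -0.17 in suffix 9 to 0.11 in suffix 8.

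Ventral cells, which held UMIs of both mesoderm regulators sna and twi, were set against dorsal cells, which held UMIs of 2 or more genes among tup, ush, zen and the Doc genes Doc1 to Doc3. The gates, read from cells thinned to 3000 UMIs, held 493 ventral and 694 dorsal cells in all 7 libraries and used no proteasome gene. The summed level of the subunits was 3448 to 4228 CPM in ventral cells with a median of 4086, and 3114 to 4336 in dorsal cells with a median of 3719. The ranges overlapped almost entirely.

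By edgeR, 4 of 32 members tested differed between the gates, or 12.5%, against 24.8% of all 6228 genes, with 3 higher and 1 lower in ventral cells where 11.4% and 13.4% of all genes were. The paralogue Rpt3R, encoded on arm 3R from 9754735 to 9756510 (BDGP6.54, minus strand), was at 9.26 to 28.9 CPM in ventral cells with a median of 14.5. In dorsal cells it was at 3.10 to 9.48 CPM with a median of 6.22. Ventral cells were higher in 7 of 7 libraries, as for 8.67% of all genes, and the ranges overlapped slightly, between 9.26 and 9.48. The log2 change was 1.23 (SE 0.243, edgeR FDR 0.000332). This rests on 141 UMIs in ventral and 62 in dorsal cells, and Rpt3 itself was not called.

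Rpt4 was at 124 to 190 CPM in ventral cells with a median of 158, and at 94.6 to 160 in dorsal cells with a median of 135, a log2 change of 0.27 (SE 0.0708, edgeR FDR 0.00541). Prosbeta4 was at 250.1 to 369 CPM in ventral and 224 to 347 in dorsal cells, a log2 change of 0.15 (SE 0.0515, FDR 0.0404). Both were higher in ventral cells in 7 of 7 libraries, with overlapping ranges. Prosbeta4 lost its call without library 1, 2, 3, 4 or 7, where its log2 change was 0.14, 0.14, 0.15, 0.13 and 0.16. DESeq2 called neither gene, with an FDR of 0.0502 for Rpt4 and 0.201 for Prosbeta4.

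Rpn2, the large scaffold of the base that anchors Rpn13, went the other way. It was at 36.6 to 60.1 CPM in ventral cells with a median of 44.0, and at 48.3 to 88.7 in dorsal cells with a median of 64.2. Ventral cells were lower in 7 of 7 libraries, as for 10.6% of all genes, with overlapping ranges, and the log2 change was -0.38 (SE 0.106, edgeR FDR 0.00811). DESeq2 gave -0.41 (FDR 0.0868). Ventral cells were deeper than dorsal cells in 7 of 7 libraries, with median UMIs per cell of 7652 to 24883 against 5673 to 11545. The part of depth in these differences was not tested beyond sums of thinned counts, in which Rpn2 was still called (FDR 0.0105), Rpt4 (FDR 0.274) and Prosbeta4 (FDR 0.618) were not, and Rpt3R was under the count filter.

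Posterior cells held UMIs of 2 or more genes among cad, byn and Abd-B, and anterior cells of 2 or more among btd, ems, hbn and oc, which gave 49 and 63 cells in 5 libraries. The summed subunit level was 3816 ± 786 CPM in posterior and 3550 ± 227 in anterior cells (SD, n = 5). By edgeR, 0 of 23 members tested differed, against 4.67% of 2336 genes. None was at an unadjusted p under 0.05, and DESeq2 also called 0. Changes of the members ranged from -0.46 to 0.42 on the log2 scale. Whether more cells would show smaller differences was not tested.

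The one gate in which the complex stood apart was that of the pole cells, the precursors of the germ line, which carry maternal RNA and transcribe little of their own at this stage. The gate took cells with at least 3 UMIs of pgc and 1 or more of nos, osk, gcl, ovo and zpg, after thinning to 3000 UMIs. It held 124 cells in the 6 libraries with at least 5 such cells, library 6 being left out with 3, and was set against the 4326 cells of those libraries with no pgc UMI. None of the gated cells was in the pooled table. Summed pole cell markers include the genes that define the gate and so differ by its choice. They were at 5837 to 13536 CPM in the gate and at 49.9 to 74.6 in the other cells. Mesoderm markers fell to 172 to 980 CPM from 1212 to 1469, and posterior markers were at 212 to 774 against 214 to 348. Ventral neurogenic ectoderm markers were at 65.9 to 614 CPM against 824 to 1224. Ranges overlapped for dorsal ectoderm and amnioserosa markers, at 87.3 to 645 against 395 to 547. They also overlapped for head markers, at 18.8 to 80.7 against 47.9 to 80.5. The part of RNA of other cells in the results was not tested. Gated cells were deeper than the others in 3 of 6 libraries, with median UMIs of 4170 to 11209 against 6470 to 11744.

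Proteasome transcripts took a larger share of the RNA in these cells. The summed level of the 31 subunits was 6037 to 7923 CPM in the pole cell gate with a median of 6708, and 3236 to 4263 in the other cells with a median of 3686. The gate was higher in 6 of 6 libraries and the ranges did not overlap. The means were 6899 ± 793 and 3720 ± 374 CPM (SD, n = 6), a ratio of 1.85. The alpha ring had the largest ratio at 2.32, ahead of the lid at 1.73, the base at 1.70 and the beta ring at 1.69. These are shares of the RNA captured, so more proteasome mRNA and less of other mRNA per cell cannot be told apart.

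**Figure D3:**
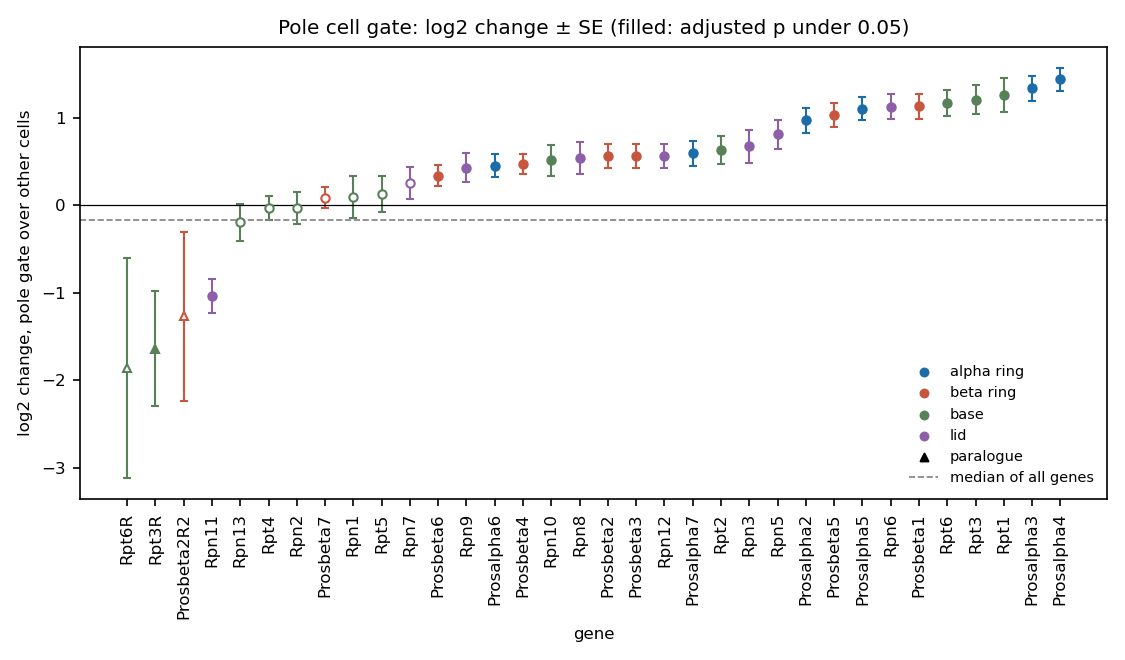
Log2 change in the pole cell gate over other cells for the 34 members tested, ordered by size, with bars of 1 SE derived from the edgeR F statistic (n = 6 libraries), filled where FDR is under 0.05, coloured by ring, base or lid, with triangles for paralogues and a dashed line at the median of all genes. The alpha ring genes are all filled and above 0, led by Prosalpha4 at 1.44, and Rpn11 is the subunit at -1.04.

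By edgeR, 23 of the 34 members tested rose in the pole cell gate, or 67.6%, where 20.6% of all 7331 genes did. Another 2 fell, where 25.9% of all genes did, so 25 were called where 46.6% of all genes were. The 12 members not tested were paralogues under the count filter. Among the 31 subunits, 27 were higher in 6 of 6 libraries, as were 18.5% of all genes. Library ranges lay apart above for 22 of the 31, against 14.1% of all genes, and apart below for 1, against 11.2%. The median log2 change was 0.55 over the members and -0.17 over all genes, a difference of 0.72. With no scaling between sums the medians were 0.75 and 0.02, a difference of 0.73. When low-count genes were kept they were 0.35 and -0.83, a difference of 1.18. With no scaling the calls over all genes also moved from 1512 higher and 1902 lower, or 44.3% higher, to 1818 higher and 1312 lower, or 58.1% higher, and those of members to 24 higher and 1 lower. The counts of libraries are of CPM without that scaling.

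All 6 alpha ring genes tested rose. Prosalpha4, encoded on arm X from 16276270 to 16277587 (BDGP6.54, plus strand), was at 347 to 555 CPM in the gate with a median of 472, and at 116 to 179 in the other cells with a median of 147. The ranges were far apart, and the log2 change was 1.44 (SE 0.136, edgeR FDR 2.75e-10). Prosalpha3, whose protein forms part of the pore gate, was at 239 to 423 CPM against 82.4 to 129, with no overlap and a log2 change of 1.34 (SE 0.143, FDR 4.10e-09). The other 4 alpha genes changed by 0.45 for Prosalpha6 up to 1.10 for Prosalpha5.

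In the beta ring 6 of 7 genes rose. The catalytic subunit Prosbeta1 was at 207 to 387 CPM against 98.2 to 129, a log2 change of 1.13 (SE 0.141, edgeR FDR 8.23e-08), and its 2 catalytic partners also rose, Prosbeta5 by 1.03 and Prosbeta2 by 0.56. Prosbeta6 had the smallest called change, at 0.34, and lost its call without library 3, at 0.28 (FDR 0.100), and without library 4, at 0.31 (FDR 0.0797). Prosbeta7, the most abundant of all elsewhere, was at 332 to 428 CPM in the gate and 282 to 351 in the other cells. It was not called, at 0.09 (FDR 0.577), and its ranges overlapped.

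In the base 5 of 10 genes rose, and 4 of these encode ATPases. Rpt1 was at 64.5 to 198 CPM in the gate against 40.1 to 55.9 in the other cells, a log2 change of 1.26 (SE 0.193, edgeR FDR 2.73e-06). Rpt3 was at 93.3 to 166 CPM against 39.1 to 50.1, a change of 1.21 (SE 0.167, FDR 5.44e-07), and Rpt6 at 155 to 249 against 65.3 to 89.5, a change of 1.17 (SE 0.146, FDR 7.88e-08). The ranges of all 3 lay apart. The other called ATPase was Rpt2, at 0.64, and the ubiquitin receptor Rpn10 changed by 0.51. Rpn10 was not called without library 1, at 0.40 (FDR 0.0806), or library 7, at 0.47 (FDR 0.0781). The ATPases Rpt4 and Rpt5 were not called, at -0.03 and 0.13. Nor were Rpn1 at 0.10, Rpn2 at -0.03 and Rpn13 at -0.19, which are not ATPases. The direction of Rpt4 and Rpn2 turned with no scaling, at 0.17 each, where they were not called either (edgeR FDR 0.335 and 0.494).

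The lid was split, with 6 of its 8 genes higher and 1 lower. Rpn6, which links the lid to the core, had the largest rise, from 110 to 136 CPM in the other cells to 228 to 395 in the gate, a log2 change of 1.13 (SE 0.140, edgeR FDR 7.14e-08). Rpn5, Rpn3, Rpn12, Rpn8 and Rpn9 rose by 0.81, 0.67, 0.57, 0.54 and 0.43. Rpn8 lost its call without library 5 (0.49, FDR 0.0576) and library 7 (0.47, FDR 0.0900), and Rpn9 without library 3, 4 or 5 (0.40, 0.42 and 0.35). Rpn7 was not called, at 0.26.

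Rpn11, the deubiquitinase of the lid, encoded on arm 2L from 5058404 to 5059790 (BDGP6.54, minus strand), was the 1 subunit called lower. It was at 21.5 to 62.4 CPM in the pole cell gate with a median of 48.5, and at 80.9 to 94.4 in the other cells with a median of 81.8. The gate was lower in 6 of 6 libraries, as for 17.8% of all genes, and the ranges did not overlap. The log2 change was -1.04 (SE 0.195, edgeR FDR 5.82e-05), from 74 UMIs in the gate, and it was called in each of the 15 alternatives tried, 2 of which left the sums as they were. Rpn8, its partner in the lid, was at 58.0 to 90.4 CPM in the gate and at 37.9 to 46.7 in the other cells. Rpt3R was also lower, with a log2 change of -1.64 (SE 0.657, edgeR FDR 0.0402), though it had 5 UMIs in the gate and none in 4 of the 6 libraries, so the size of the change depends on the fit. Its call was lost without library 1, 2, 3 or 7, at -1.56, -1.43, -1.26 and -1.23, and with no scaling, at -1.46 (FDR 0.0820).

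Sums of cells thinned to 3000 UMIs, which hold fewer counts, called 12 of 31 members, 11 higher and 1 lower. Of all genes, 14.3% were called higher and 26.6% lower. The median log2 change in these sums was 0.36 over the members and -0.33 over all genes. The part of fewer counts in the lost calls was not tested. In all, 12 members were called under every alternative.

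The pathway genes that serve the proteasome did not all move with it. From a list of 24 names chosen with earlier results known, 23 were found, the deubiquitinase Usp14 under the name CG5384, and Ecm29 was not matched. In the pole cell gate 7 of the 23 rose and 5 fell, where 20.6% and 25.9% of all genes did. Those that rose included ntc, an F-box protein that acts with the regulator PI31, by 1.46 (SE 0.455, edgeR FDR 0.00911), the ubiquitin shuttle Rad23 by 1.31 (SE 0.129, FDR 6.96e-10), the shuttle Ubqn by 0.76 and CG5384 by 0.60. The level of ntc was low elsewhere, at means of 2.30 CPM in the anterior and 1.31 in the posterior gate. Those that fell included CG9588, a relative of a chaperone of base assembly, by 1.96 (SE 0.310, FDR 4.71e-06), and Pngl, a peptide N-glycanase, by 1.56. The regulator PI31 changed by -0.71 and RpS27A, a ubiquitin and ribosomal protein fusion, by -0.28. Of the cytosolic chaperonin, another large complex listed for comparison, 5 of 7 genes tested rose and none fell. Its summed level was 791 ± 172 CPM in the gate against 292 ± 10.7 (SD, n = 6), a ratio of 2.71.

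Between ventral and dorsal cells 3 of 22 pathway genes differed by edgeR, where 24.8% of all genes did. The transcription factor gene cnc, whose product is known both from head development and from control of proteasome genes, changed by -2.03 (SE 0.251, FDR 4.87e-07), Ufd1-like by -0.36 and the polyubiquitin gene Ubi-p5E by 0.31. In posterior against anterior cells 1 of 16 was called, where 4.67% of all genes were. It was cnc, at -4.47 (SE 0.622, edgeR FDR 0.000125), with 4 UMIs in posterior cells, none in 4 of the 5 libraries, and 154 in anterior cells, so the size of the change depends on the fit. Among the suffixes 3 of 19 were called for any difference, where 29.6% of all genes were, namely cnc, Ubi-p5E and the ubiquitin-activating enzyme gene Uba1. In the head-like suffix 5, cnc stood 4.20 higher on the log2 scale (SE 0.326, edgeR FDR 5.19e-15), and no proteasome gene was called there.

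The spread between cells was measured on the 5071 cells thinned to 3000 UMIs. For each gene the variance over the mean of its UMIs per cell, which is 1 for random sampling alone, was divided by the median of the 100 genes nearest in mean. The 31 subunits had a variance over mean of 1.04 to 1.16, at means of 0.0974 to 0.914 UMIs per cell. The median ratio to genes of like mean was 0.973 ± 0.0167 (SD, n = 7 libraries), from 0.953 to 1.00. For scale, the patterned gene sog had a variance over mean of 5.91 at a mean of 1.22 UMIs per cell. The pole cell gene pgc had 40.8 at a mean of 0.933. At lower means, the patterned genes sna and zen were closer to the subunits, with 1.68 at 0.275 and 2.01 at 0.0924. RpL40 and RpS27A, at means of 14.2 and 16.0, had 1.59 and 1.44.

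Of the 31 genes 6 had a mean ratio above 1. The highest were Prosalpha4 at 1.02 ± 0.0583, Rpn11 at 1.02 ± 0.0440, Rpn6 at 1.01 ± 0.0793, Rpt1 at 1.01 ± 0.0997 and Rpt6 at 1.00 ± 0.0351 (SD, n = 7). The lowest were Prosbeta6 at 0.907 ± 0.0582, Prosalpha6 at 0.916 ± 0.0925, Prosalpha7 at 0.926 ± 0.0869, Prosbeta3 at 0.930 ± 0.0568 and Prosbeta2 at 0.939 ± 0.0642 (SD, n = 7). Differences between neighbours in this order were smaller than their spread over libraries.

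**Figure D4:**
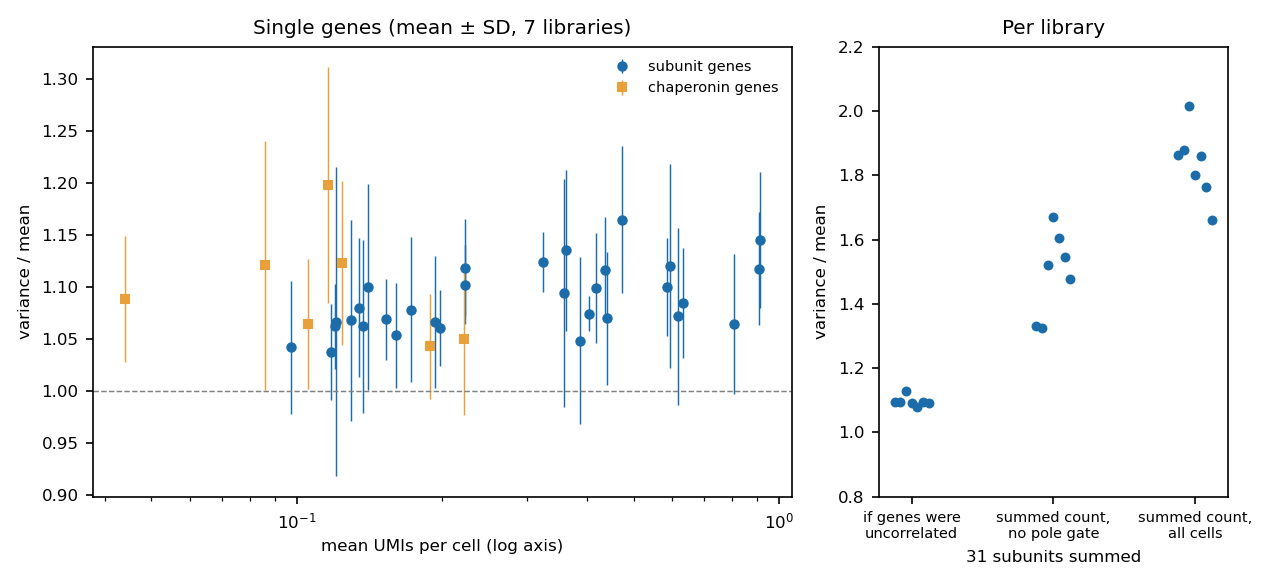
On the left, variance over mean of UMIs per cell against mean UMIs per cell (log axis) for the 31 subunit and 7 chaperonin genes, with mean ± SD over 7 libraries and a dashed line at 1. On the right, variance over mean of the summed subunit count per library, where the sum of single-gene variances averages 1.10, the summed count without gated pole cells 1.5 and with them 1.83.

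Taken cell by cell, the 31 genes summed to 11.0 ± 0.933 of 3000 UMIs (SD, n = 7), and 3 of 5071 cells had none. The variance over the mean of this summed count was 1.83 ± 0.110, whereas the variances of the single genes added up to 1.10 ± 0.0157 of the mean, so counts of different subunits varied together between cells. Without the gated pole cells the value was 1.5 ± 0.130 (SD, n = 7). Gated pole cells had a mean of 21.3 ± 2.99 subunit UMIs and other cells 10.6 ± 0.974 (SD, n = 6). For the chaperonin list the variance over mean of the sum was 1.19 ± 0.0771 with the pole cells and 1.05 ± 0.0453 without them (SD, n = 7). Its single-gene variances added up to 1.09 of the mean. The chaperonin sum averaged 0.889 UMIs per cell, against 11.0 for the subunits. At such unlike means these values do not rank the 2 lists by how far their genes varied together.

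The bulk library of intact embryos had 6608592 reads on genes. In TPM (transcripts-per-million), which divides reads by exon length, the 31 subunits summed to 7473, from 73.8 for Rpn8 to 575 for Prosbeta7. Prosbeta7, Prosbeta4 and Prosbeta6 were the top 3 by bulk TPM as by Drop-seq. Across the 31 genes the rank correlation of mean Drop-seq CPM with bulk TPM was 0.933, and with bulk CPM, which is not divided by length, 0.784. The 31 points share their libraries and are genes, not replicates, so these are descriptions with no p.

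Drop-seq and bulk were then compared as log2 of CPM + 1 in each, which for a single bulk library allows no test. The median log2 ratio of the 31 subunits was -0.38 ± 0.13 (SD, n = 7 Drop-seq libraries), from -0.58 to -0.21, and the median over all 6234 genes was -0.84. Over 2-fold higher in bulk were 5 of the 31, or 16.1%, against 45.1% of all genes. None was over 2-fold higher in Drop-seq, against 9.93% of all genes. With bulk TPM in place of CPM, which was tried after seeing the data, the median was -0.95 ± 0.12 (SD, n = 7) for the subunits and -0.57 for the 6219 genes with a length. All 31 subunits then lay below 0, from -1.70 for Rpt1 to -0.36 for Prosalpha3, and 12 of 31 were over 2-fold lower than in bulk, against 28.7% of all genes.

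By the ratio of CPM, the 5 were Rpn1 at -2.12, Rpn2 at -1.87, Rpt1 at -1.42, Rpt4 at -1.26 and Rpn6 at -1.11. Of these, Rpn1 and Rpn2 are by far the longest, with 3041 and 3412 exon bases where the median subunit has 1393, and against bulk TPM they stood at -1.40 and -0.98. The highest ratios of CPM were those of Prosalpha3 at 0.55, Prosbeta3 at 0.44, Prosbeta4 at 0.42, Prosalpha5 at 0.35 and Prosbeta6 at 0.07. Of the 31, 4 lay above 0 in all 7 libraries and 23 below 0 in all 7. Over the 31 genes the ratio followed exon length with a rank correlation of -0.856, given as a description. Bulk CPM is not divided by length, so this ratio holds length by its make-up. Fixation, dissociation and how length enters the count differ with the assay. These and other traits of a gene cannot be told apart here, nor can fewer cells of a type and less RNA per cell in the bulk sample.

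**Figure D5:**
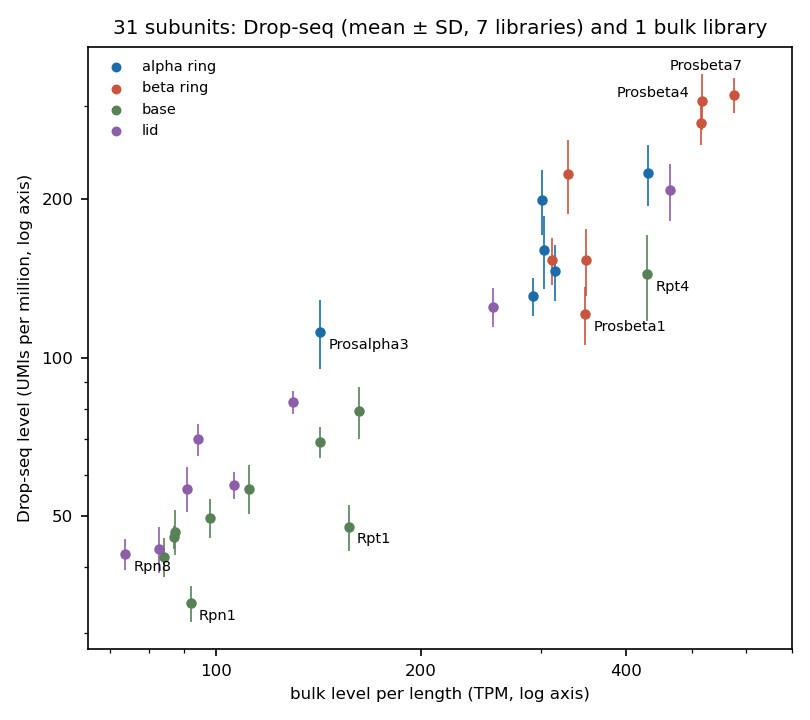
Mean ± SD of the Drop-seq level of each of the 31 subunit genes in CPM (7 libraries) against its bulk level in TPM (1 library), both axes log, coloured by ring, base or lid, with 8 genes named. Prosbeta7 and Prosbeta4 lie at the upper right, Rpn1 lies lowest, and Rpt4 and Rpt1 lie below genes of like bulk level.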

How the data were processed

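Per the labels and the deposited tables, the authors provided UMI counts per gene and cell for 7 Drop-seq libraries, a pooled table of high-quality cells, and HTSeq read counts for bulk embryos. The submitters' processing notes name STAR, HTSeq and the build BDGP6, and their versions and settings are not given in the sources used here. Members and lists were chosen with earlier results of these data known. Named genes are all members past FDR 0.05 or, above 6 per direction, the 6 largest changes, and the 5 highest and lowest of each description; other members are named as values. Of the pathway list, up to 4 are named per direction.

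Cells needed 1000 UMIs and 90% D. melanogaster UMIs. No doublet caller was run. Cells of suffixes and of marker gates were summed per library (at least 5 cells) from the library tables, in which 920 of the 1297 pooled cells had the same counts as in the pooled table and 12 differed by over 1%. None of the 356 pooled cells of library 3 had equal counts, and 5 of them differed by over 1%. The summed counts were tested with edgeR 4.0.16 (R 4.3.3; quasi-likelihood F test after TMM scaling and the filterByExpr filter, with library as a block, since both sums came from the same library), checked on simulated data, and with DESeq2 1.42.0 as an alternative. Adjusted p-values (FDR) cover all genes tested. The SE of an edgeR change was derived as the absolute log2 change divided by the square root of its F statistic. The posterior and anterior gates had 5 cells or more each in 5 libraries. A count of 3 UMIs equals 0.153 to 0.421 CPM per library, for counting error only. Bulk TPM used union exon lengths of BDGP6.54, and CPM ratios a pseudocount of 1 and genes of at least 10 CPM in 1 assay. Of the bulk reads counted, 45.2% lay on no feature and were left out. The bulk library of D. virilis was not used. Python 3.11.15 was used with numpy 2.4.6, pandas 2.3.3, scipy 1.17.1 and matplotlib 3.10.9.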

Additional observations from a re-analysis of the deposited data

Results flagged for a closer look

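Among 35 groups of 4 to 7 library values examined, 4 had a library far from the others, where chance gives about 1 in 20. Rpn3 reached 51.3 CPM in library 5, where the next single-species library had 42.6. Rpn2 reached 88.7 CPM in the dorsal gate of library 1, where the next library had 65.3. Rpt3R reached 28.9 CPM in the ventral gate of library 1, where the next had 15.7. The summed subunit level in suffix 8 was lowest in library 3 at 3317 CPM, where the next library had 4011.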

How the results depend on the processing

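The call counts of members rested on processing in the suffix groups more than elsewhere. For any difference among the suffixes, 3 members were called, 0 without the library as replicate block, 0 with sums of at least 10 cells, 0 in thinned sums, and 1 to 3 when 1 library was left out. For suffix 4 the count of 1 became 3 with no filter on low counts, 0 with no replicate block, 0 with at least 10 cells, 0 in thinned sums and 0 to 2 with 1 library left out. For suffix 6 the count of 3 became 1 with RLE scaling, 1 with no filter, 1 with no replicate block, 0 in thinned sums and 1 to 3 with 1 library left out. For suffix 9 the count of 0 became 0 to 2. Between ventral and dorsal gates the count of 4 became 2 with no replicate block, 1 with DESeq2 and 3 to 5 with 1 library left out. For the pole cell gate the count of 25 became 12 in thinned sums, which hold fewer counts, and 22 to 25 with 1 library left out, where 25 is the value without library 6, which was not in that comparison. The cause of these shifts was not tested. No paired analysis was possible for mixed against single-species libraries because they share no replicate number.

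No value of a called gene changed sign, while the median of all genes in the pole cell gate did with no scaling. Of the values of single called genes, 342 of the pole cell gate kept their call and 32 lost it, as did 42 and 13 of the ventral and dorsal gates, 9 and 4 of suffix 4 and 15 and 20 of suffix 6. The medians against bulk (-0.41 to -0.35 with 1 library left out) and of the spread (0.969 to 0.976) moved by less than 1 SD under the settings planned, and that against bulk became -0.95 with bulk TPM in place of CPM. Using the counts of the pooled table, chosen like the TPM ratio and no scaling after seeing the data, kept the suffix counts within 1.5 times. The sum of at least 10 cells gave no value for suffixes 2, 6, 7 and 9. The 12 paralogues with 1 to 12 UMIs were under the count filter.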
